A study of Danio rerio with 40 samples.

Results

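The nuclear genes of oxidative phosphorylation are the genes in the cell nucleus that encode subunits of the 4 respiratory chain complexes and of the ATP synthase. They were chosen by zebrafish gene symbol, leaving out assembly factors, by a rule that uses no measured value. Earlier results of these data were known when they were chosen. The rule found 97 genes among the 32057 of the count table. Complex I had 38 of them, complex II 5, complex III 9, complex IV 25 and complex V, the ATP synthase, 20. The genes named ndufa4 were counted with complex IV, since mammalian NDUFA4 is a subunit of that complex. After a filter on low counts 94 of the 97 could be tested, of 19668 genes tested in all.

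Complexes I and II pass electrons from NADH and succinate to coenzyme Q, complex III passes them on to cytochrome c, and complex IV, cytochrome c oxidase, passes them to oxygen. Complexes I, III and IV pump protons as they do so, and complex V uses the proton gradient to make ATP. The electrons travel through iron-sulfur clusters, haem groups and copper centres, and neurons depend heavily on this route for their ATP. Complex IV differs from the others in having several subunits that exist as paired isoforms, encoded by separate genes and used in different tissues or oxygen conditions in mammals.

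RNA was sequenced from 40 whole brains of zebrafish (Danio rerio) aged 6 months, each from a different fish. Fish of 2 genotypes, siblings, were compared: homozygous for the naglu mutation A603fs, a model of the lysosomal storage disease mucopolysaccharidosis type IIIB, and heterozygous for the same mutation. Each fish had been injected into the body cavity 7 days earlier, either with 10 µg of ferric citrate in 0.85% saline or with the saline alone. The 40 libraries make 4 groups of 10, homozygous iron, homozygous saline, heterozygous iron and heterozygous saline. All fish therefore carried at least 1 mutant allele and all had been injected, so neither wild-type nor uninjected brains enter any comparison. There were 5 females among the homozygous iron fish, 7 among the homozygous saline, 5 among the heterozygous iron and 2 among the heterozygous saline fish.

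Each library held between 11800000 and 38500000 counts (median 26900000), and the 97 genes took between 1.08% and 1.48% of each library. naglu itself did not differ by genotype, with a log2 fold change of 0.13 ± 0.13 (SE) for homozygous over heterozygous brains (edgeR adjusted p = 0.604). A frameshift need not change the level of the RNA, so this gene does not check the labels. On a score from the 50 genes that best separate the genotypes, with 0 for heterozygous and 1 for homozygous, the 20 homozygous libraries lay between 0.61 and 1.31 and 18 heterozygous ones between -0.57 and 0.29. Against their labels, the library labelled heterozygous iron 5 lay at 1.18 and the one labelled heterozygous saline 5 at 1.08. Genotype results are also given without these 2 libraries. The 50 genes were picked by the genotype labels, so the separation of the other libraries does not check the labels. The 2 libraries were in turn picked by their expression, so larger genotype differences without them are no separate support. The 19 markers of neurons and glia summed to between 18200 and 39700 CPM, or counts scaled to a common library size, in every library. Their median sums were 22500 in homozygous iron and 23100 in homozygous saline brains, against 29200 in heterozygous iron and 31300 in heterozygous saline brains, and 3 of the 19 had a log2 fold change above 0 for homozygous over heterozygous, with a median of -0.07. The part of this in the genotype results was not tested. Striated muscle markers, 33 genes, summed to between 88.9 and 217 CPM. Photoreceptor and pineal markers, 30 genes, summed to between 19 and 413 CPM. The 21 of them tested had a median log2 fold change of 1.06 for homozygous over heterozygous brains and of 0.70 for females over males, with 0 called in both and 3 and 4 at an unadjusted p under 0.05. Their part in the results below was not tested. In whole tissue, fewer cells of a type and less RNA per cell cannot be told apart.

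Of the 94 tested genes, 53 were among the 1967 genes with the highest mean CPM, a level that also grows with the length of a transcript and so is not compared between genes here. The SD between fish of one group, after sex and home tank were taken out, had a median of 0.158 on the log2 CPM scale for the 94 genes and of 0.225 for all genes tested. For those 53 genes it was 0.156, against 0.146 for all 1967. The steadiest were cox5b (ENSDARG00000113254), with an SD of 0.089, and uqcrfs1, which encodes the Rieske iron-sulfur protein of complex III, with 0.114. The most variable were cox4i1l with 2.08, ndufa9b with 1.21 and cox7a1 with 0.802.

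In some libraries most of the set lay on one side of its mean, while in others it was split about evenly. In the libraries heterozygous saline 3 and heterozygous iron 9, 91 of the 94 genes lay below their mean over all libraries, and in homozygous iron 4, 90 of the 94 lay above it. Averaged over the genes of a complex, homozygous saline 1 was at -0.38 for complex I, -0.43 for complex II, -0.31 for complex III and -0.35 for complex V on the centred log2 CPM scale. For complex IV it was at -0.08, or -0.13 without cox4i1l, a gene nearly absent from 8 libraries that weighs as much as any other in this mean. Heterozygous saline 3 was low for all 5 complexes, between -0.27 and -0.36. These 2 libraries were the lowest of the 40 over the whole set, at -0.29 and -0.30, and the iron and fish number results are also given without them. Both are saline libraries with fish numbers up to 40, picked for their low values. Leaving them out therefore moves both contrasts in a direction set by that choice. Heterozygous iron 9, the next lowest at -0.26, was kept.

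**Figure D1:**
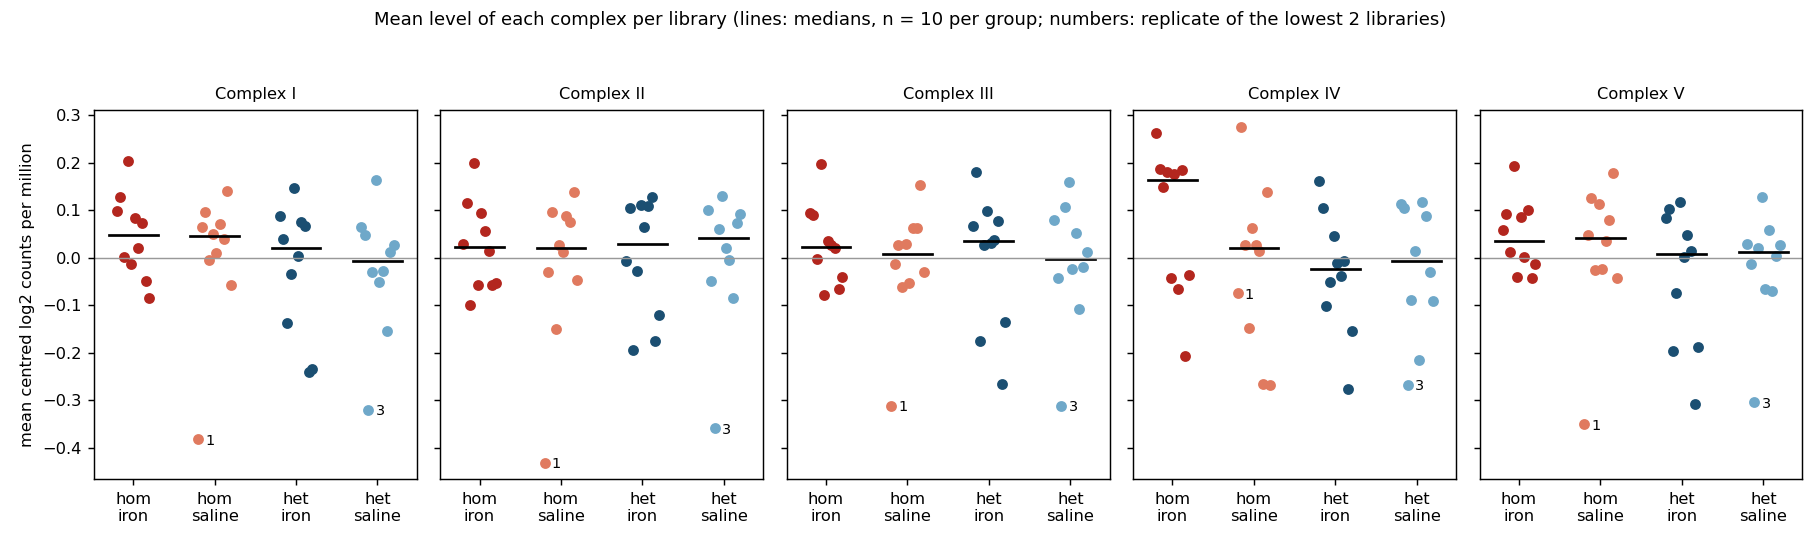
Mean centred log2 CPM of the tested genes of each respiratory complex (vertical axis) in each of the 40 libraries, by group; black lines are medians and the numbers mark homozygous saline 1 and heterozygous saline 3. The groups overlap in every panel, and complex IV has the highest median in homozygous iron brains, at 0.16, against -0.02 in heterozygous iron brains; without cox4i1l these medians are 0.11 and -0.06.

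The genes called by genotype were few, as among all genes tested, and they belonged to complex IV. With the 2 treatments averaged, 3 of the 94 genes rose in homozygous over heterozygous brains and 0 fell, while 2.03% of all genes tested were called higher and 2.28% lower (edgeR quasi-likelihood test, adjusted p at most 0.05). At an unadjusted p under 0.05 the counts were 8 higher and 0 lower, against 9.93% of all genes higher and 9.8% lower. The 3 genes were cox4i2, cox7a2 (ENSDARG00000110700) and cox5b (ENSDARG00000068738). Each encodes a form of a subunit for which at least 1 other gene was tested as well. Most tested genes of complex IV share this, so it does not set the 3 apart. Of the 94 log2 fold changes 73 were above 0, with a median of 0.04, against 49.4% of all genes and a median of 0.00. Without the 2 libraries whose genotype is in doubt 85 were above 0, with a median of 0.07 (0.06 after saline and 0.08 after iron). Because the genes moved together in some libraries, they are not independent, and counts of signs here and by complex below were not tested. Most ribosomal protein genes, described at the end, were also above 0 in this contrast. For 85 of the 94 genes the 95% interval of the fold change lay within 1.2-fold in either direction.

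**Figure D2:**
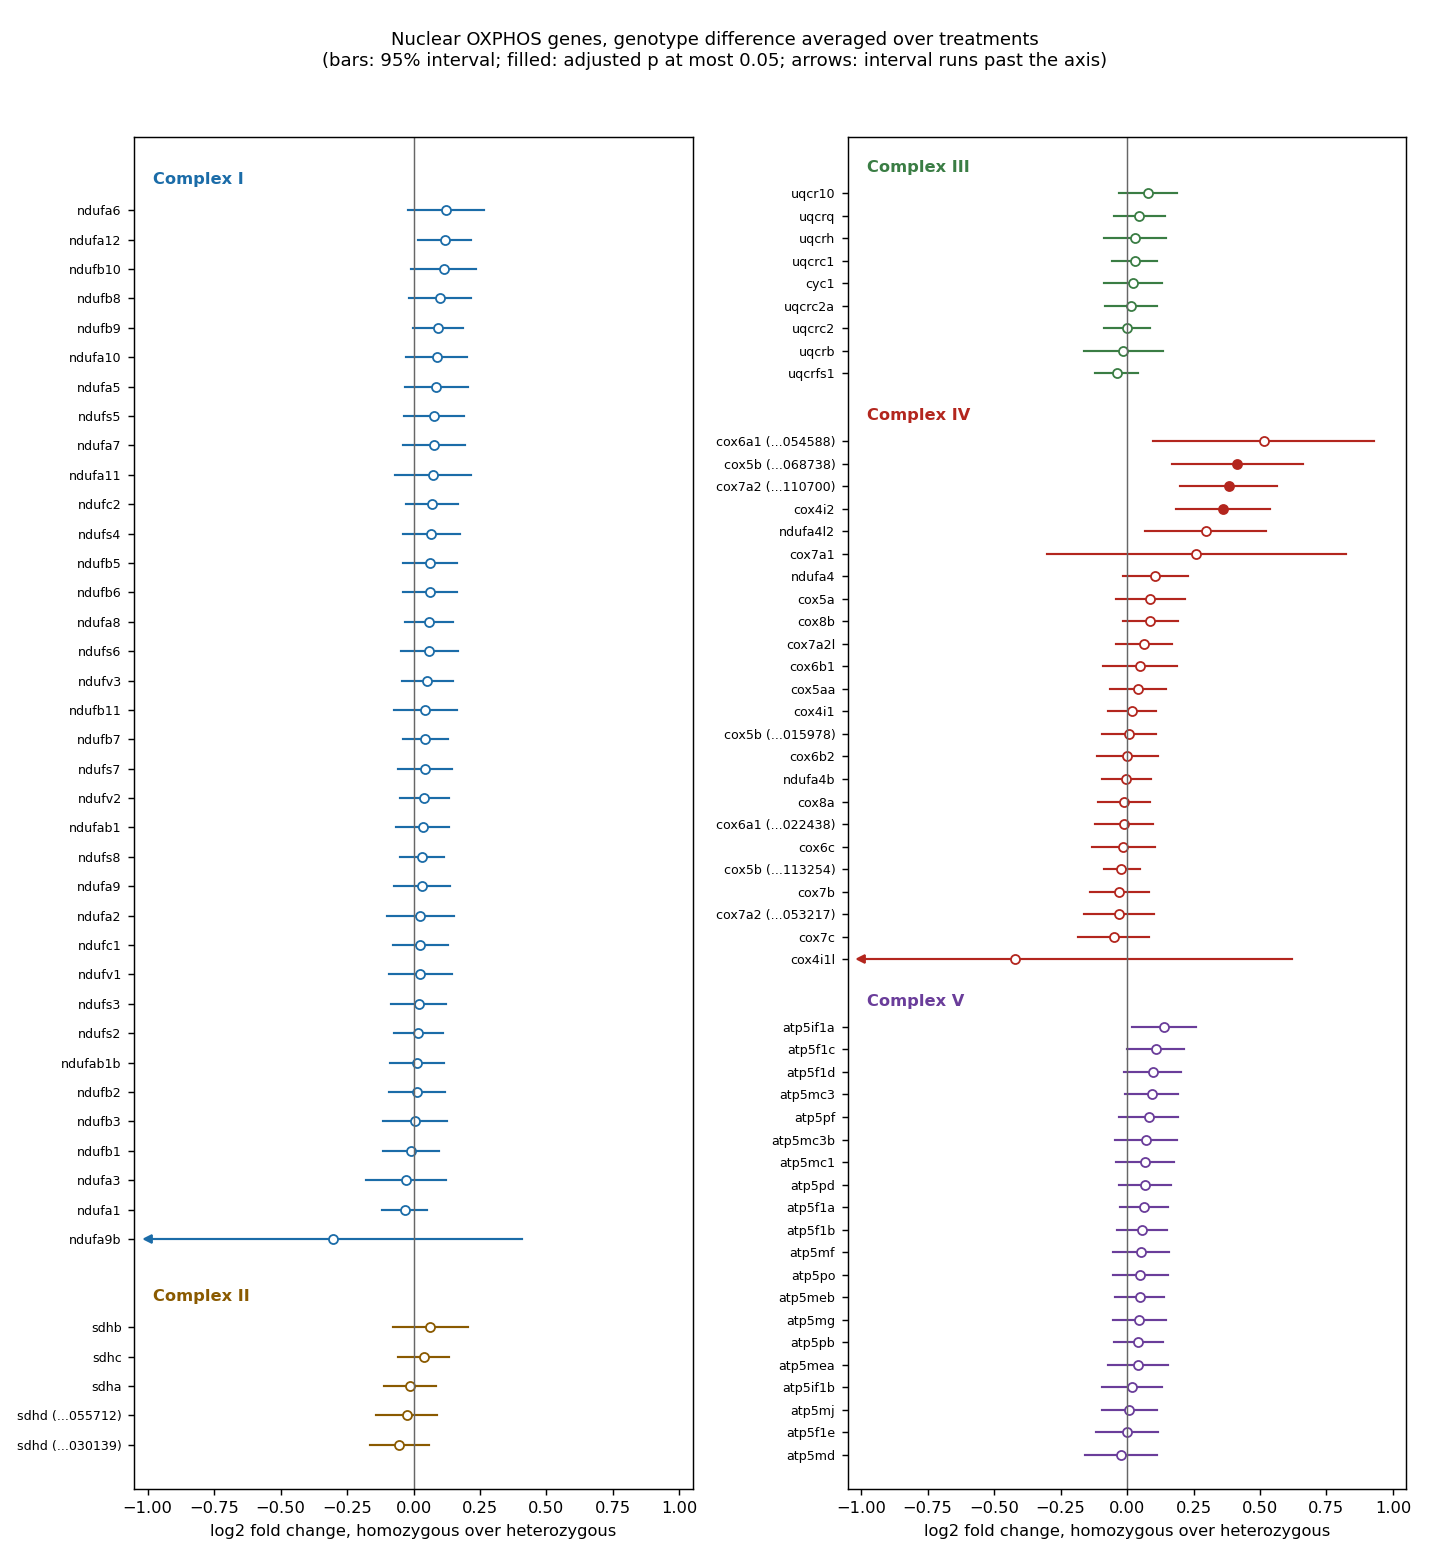
Log2 fold change of each of the 94 tested genes, homozygous over heterozygous, averaged over treatments (horizontal axis), sorted within each complex; bars are 95% intervals and filled points have an adjusted p of at most 0.05. The filled points are the complex IV genes cox4i2 at 0.36, cox7a2 (ENSDARG00000110700) at 0.38 and cox5b (ENSDARG00000068738) at 0.41, and the intervals of cox4i1l and ndufa9b are far wider than the others.

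cox4i2 (ENSDARG00000022509) encodes isoform 2 of the subunit at which ATP regulates cytochrome c oxidase. In mammals this isoform responds to low oxygen and is found in lung and in the pericytes of brain vessels. After saline its lowest, median and highest values were 81.4, 94.3 and 122 CPM in homozygous brains, against 36.9, 69.2 and 93.9 CPM in heterozygous brains. After iron they were 66.5, 85.0 and 116 CPM in homozygous brains, against 51.0, 70.7 and 97.2 CPM in heterozygous brains. The groups overlapped. All 10 homozygous saline libraries were above the heterozygous saline median and 9 of the 10 homozygous iron libraries were above the heterozygous iron median. Sex was not taken out of these counts, as it was for the fold change. The homozygous saline group held 7 females and the heterozygous saline group 2, and all 19 females were above the male median for cox4i2. The number of each fish in the labels was taken out of neither, and cox4i2 was lower above number 40, at -0.26. Numbers above 40 belonged to 4 homozygous saline and 6 heterozygous saline fish, and to 6 homozygous iron and 4 heterozygous iron fish. The log2 fold change averaged over treatments was 0.36 ± 0.09 (SE), with an edgeR adjusted p of 0.0110.

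cox7a2 (ENSDARG00000110700) encodes a form of the small subunit 7A, whose mammalian counterpart is the isoform made in most tissues. It had 11, 13 and 21.8 CPM (lowest, median and highest) in homozygous saline brains, against 6.43, 9.88 and 12.4 CPM in heterozygous saline brains. After iron it had 10.1, 13.2 and 14.6 CPM in homozygous brains, against 7.88, 9.34 and 14.4 CPM in heterozygous brains. Of the 10 homozygous libraries, 7 exceeded the highest heterozygous value after saline and 3 did so after iron. Here too sex was not taken out, and 17 of the 19 females were above the male median for this gene. The log2 fold change was 0.38 ± 0.09 (SE), with an edgeR adjusted p of 0.00907.

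cox5b (ENSDARG00000068738) encodes a form of the zinc-binding subunit 5B and rests on few reads, between 492 and 659 counts in each group of 10 libraries. It had 1.67, 2.68 and 3.07 CPM in homozygous saline brains, against 1.58, 1.97 and 2.30 CPM in heterozygous saline brains. After iron it had 1.66, 2.64 and 4.47 CPM in homozygous brains, against 1.27, 1.83 and 3.00 CPM in heterozygous brains. The groups overlapped after both treatments, with 7 of 10 homozygous saline libraries and 9 of 10 homozygous iron libraries above the heterozygous median. Its log2 fold change of 0.41 ± 0.12 (SE, edgeR adjusted p = 0.0417) lost its call in 17 of the 40 fits that leave out 1 library, with adjusted p between 0.0154 and 0.0941.

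Without the 2 libraries whose genotype is in doubt the 3 rises were larger, at 0.43 for cox4i2, 0.45 for cox7a2 (ENSDARG00000110700) and 0.48 for cox5b (ENSDARG00000068738). Another gene of complex IV, ndufa4l2, then passed the test at 0.37 ± 0.12 (SE, edgeR adjusted p = 0.0447). ndufa4l2 encodes a paralog of NDUFA4 that is induced by low oxygen in mammals. With all libraries it had 14.6, 21.2 and 28.5 CPM in homozygous saline brains, against 7.24, 14.7 and 23.4 CPM in heterozygous saline brains. After iron it had 15.2, 20.2 and 28.8 CPM in homozygous brains, against 11.2, 17.0 and 30.1 CPM in heterozygous brains. Its log2 fold change over all 40 libraries was 0.30 ± 0.11 (SE) and did not pass the test (adjusted p = 0.124). The lowest heterozygous saline values of cox4i2, cox7a2 (ENSDARG00000110700) and ndufa4l2 came from 1 library, heterozygous saline 10. Without it the rises after saline were 0.37 for cox4i2 and 0.28 for ndufa4l2, their lowest in 40 fits leaving out 1 library. For cox7a2 (ENSDARG00000110700) the lowest, 0.34, was without homozygous saline 10.

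**Figure D3:**
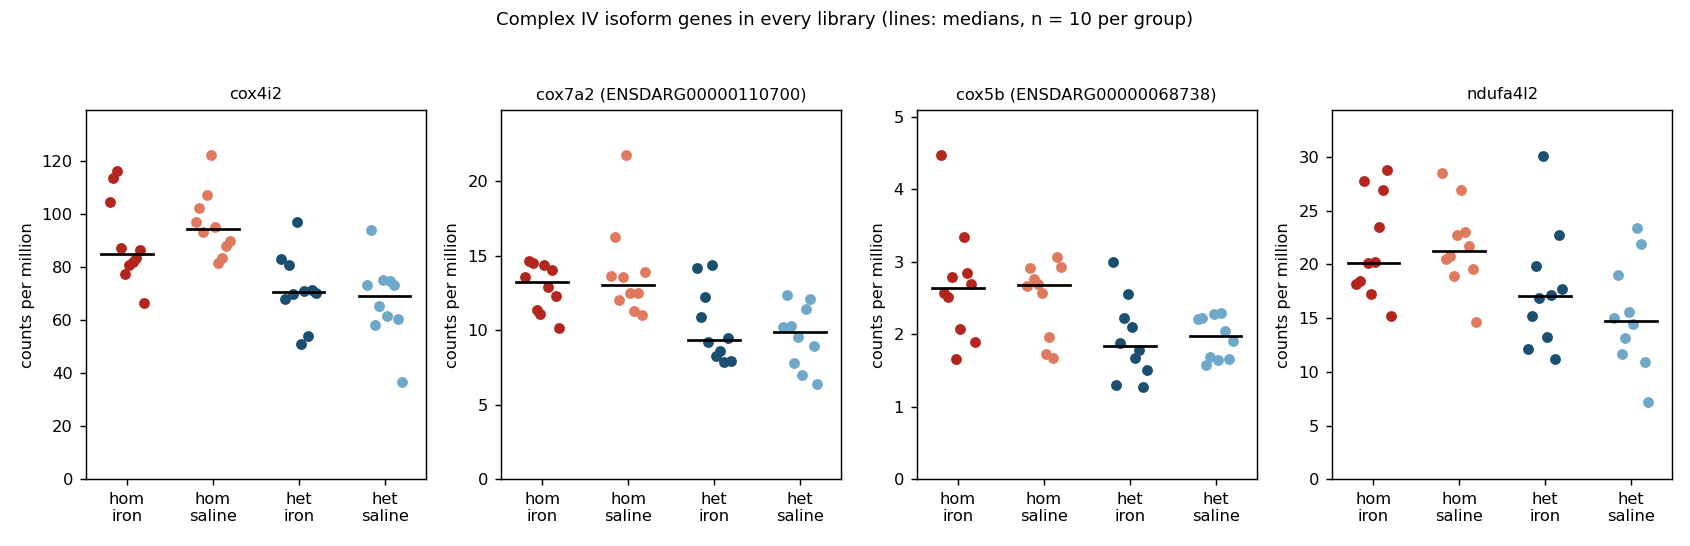
CPM of 4 complex IV genes (vertical axes, each from 0) in every library, by group, with medians as black lines (n = 10 per group). Both homozygous medians lie above both heterozygous medians in each panel, and single libraries of the genotypes overlap throughout.

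The log2 fold changes of cox4i2, cox7a2 (ENSDARG00000110700) and cox5b (ENSDARG00000068738) were above 0 within each sex and each range of fish numbers, and 0 of the 94 genes were called within any of these 4 subsets. Each subset holds fewer libraries, and its share of all genes called is not reported here. The absence of calls in the subsets is therefore not read as a result about the set. cox4i2, cox7a2 (ENSDARG00000110700) and cox5b (ENSDARG00000068738) were picked because they passed the genotype test over all libraries, which include those of each subset. Their shared sign in the subsets is therefore no separate support for the rises. The log2 fold change of cox4i2 was 0.36 with female libraries only, 0.47 with males only, 0.31 with fish numbers above 40 only and 0.34 with fish numbers up to 40 only. That of cox7a2 (ENSDARG00000110700) was 0.41 in females, 0.48 in males, 0.48 above 40 and 0.20 up to 40. That of cox5b (ENSDARG00000068738) was 0.47 in females, 0.55 in males, 0.47 above 40 and 0.32 up to 40. With 1 surrogate variable in the model cox4i2 was at 0.21 (adjusted p = 0.0593) and 0 of the 94 genes were called, with the share of all genes in that fit likewise not reported here. A surrogate variable is an unlabelled pattern estimated from the counts, and whether this one holds part of the genotype difference was not tested. ndufa4l2, by contrast, was at -0.05 with females only and at 0.42 with males only.

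The partner genes of the same subunits did not pass the test. cox4i1, the common isoform of subunit 4, had medians of 349 and 329 CPM in homozygous iron and homozygous saline brains, against 338 and 346 CPM in heterozygous iron and heterozygous saline brains. Its log2 fold change was 0.02, with a 95% interval from -0.07 to 0.11. The other cox7a2 gene (ENSDARG00000053217) was at -0.03 (95% interval -0.16 to 0.10). The other genes named cox5b were at 0.01 for ENSDARG00000015978 (-0.10 to 0.11) and at -0.02 for ENSDARG00000113254 (-0.09 to 0.05). ndufa4b was at 0.00 (-0.10 to 0.09) and ndufa4 at 0.11 (-0.02 to 0.23). The upper ends of the intervals listed here lie below the estimates of cox4i2, cox7a2 (ENSDARG00000110700) and cox5b (ENSDARG00000068738). This does not hold for every gene of these subunits. The interval of cox7a1, given below, reaches above those estimates, and that of cox4i1l is far wider than those listed. The estimates also belong to genes picked because they passed the test. The difference between isoforms was not itself tested, so no isoform specificity is read from this comparison.

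Of the remaining isoform genes of complex IV, cox6a1 (ENSDARG00000054588) was at 0.51 ± 0.20 (SE, adjusted p = 0.147). Its medians were 0.855 CPM in homozygous iron and 0.839 CPM in homozygous saline brains, against 0.780 CPM in heterozygous iron and 0.362 CPM in heterozygous saline brains. The other cox6a1 gene (ENSDARG00000022438) was at -0.01 (95% interval -0.12 to 0.10). cox7a1, whose mammalian counterpart is the heart and muscle isoform of subunit 7A, was at 0.26 with an interval from -0.30 to 0.82. cox8b, a muscle isoform in mammals, was at 0.09 (-0.02 to 0.19), and cox8a at -0.01 (-0.11 to 0.09).

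cox4i1l, another gene of subunit 4, was either counted or nearly absent. In 8 of the 40 libraries it was at or below 0.360 CPM, and in the other 32 it was between 4.93 and 28.2 CPM, with none between. The low libraries were 5 of 10 homozygous saline, 2 of 10 homozygous iron, 1 of 10 heterozygous iron and 0 of 10 heterozygous saline. The 1 heterozygous library was heterozygous iron 5, which also stands with the homozygous fish on the genotype score. The other library in doubt, heterozygous saline 5, was among the counted ones, at 7.21 CPM. By RefSeq's gene table cox4i1l lies on the chromosome of naglu, as do cox6b1 and ndufb4 among the 94 of 97 genes matched there by name. By symbol, none of the 3 genes that rose with genotype lies on it. The fitted log2 fold change of cox4i1l, -0.42 ± 0.51 (SE, adjusted p = 0.694), averages over the counted and the absent libraries. These groups of libraries were seen in the data, so no test was made of them.

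In complex I 32 of the 36 tested genes had a log2 fold change above 0, with a median of 0.04, and 0 passed the test. The smallest p belonged to ndufa12, an accessory subunit, at 0.12 ± 0.05 (SE, adjusted p = 0.170). The tested subunits that take electrons from NADH or hold iron-sulfur clusters were close to 0, with ndufv1 at 0.03, ndufv2 at 0.04, ndufs7 at 0.04 and ndufs8 at 0.03. The intervals of these 4 subunits lay between -0.09 and 0.15. ndufa9b, listed by RefSeq as a pseudogene, was low in all groups and had an interval from -1.01 to 0.41.

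Complexes II, III and V were likewise without a call. In complex II 2 of 5 genes were above 0. sdha, the flavoprotein that oxidises succinate, had medians of 623 and 602 CPM in homozygous iron and saline brains, against 638 and 633 CPM in heterozygous iron and saline brains, and a log2 fold change of -0.01 (95% interval -0.11 to 0.09). In complex III 6 of 9 genes were above 0, with uqcrc1, a core subunit, at 0.03 (-0.06 to 0.11) and uqcr10, a small subunit, at 0.08 ± 0.05 (SE, adjusted p = 0.433). In complex V 18 of 20 were above 0, with a median of 0.05. The smallest p there belonged to atp5if1a, which encodes the inhibitory factor that blocks ATP hydrolysis, at 0.14 ± 0.06 (SE, adjusted p = 0.186), and atp5f1a, the alpha subunit, was at 0.07 (-0.02 to 0.15).

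Taken by treatment, the genotype contrast called 0 of the 94 genes after saline, where 1.25% of all genes were called, and 0 of 94 after iron, where 0.137% were called. At an unadjusted p under 0.05, 3 genes were higher and 0 lower after saline, against 7.78% and 7.48% of all genes. After iron 4 were higher and 0 lower at that level, against 3.66% and 4.66% of all genes. cox4i2 was at 0.41 ± 0.13 (SE, adjusted p = 0.0938) after saline and at 0.31 ± 0.12 (SE, adjusted p = 0.471) after iron. Without the 2 libraries in doubt, cox4i2 passed after saline, at 0.46 (adjusted p = 0.0361). In the other complexes the smallest p after saline belonged to ndufb10 at 0.17, sdhd (ENSDARG00000055712) at -0.08, cyc1 at 0.06 and atp5if1a at 0.13. After iron it belonged to ndufa12 at 0.13, sdhd (ENSDARG00000030139) at -0.07, uqcr10 at 0.10 and atp5mc3, a gene of the membrane ring of the ATP synthase, at 0.14. In complex IV it belonged after iron to cox5b (ENSDARG00000068738), at 0.53 ± 0.17 (SE, adjusted p = 0.304). The medians of the 94 log2 fold changes were 0.03 after saline and 0.05 after iron, and 77 of the 94 intervals after saline and 73 after iron lay within 1.2-fold.

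Ferric citrate called none of these genes. Averaged over genotypes, 0 of the 94 were called for iron over saline, as were 0% of all genes tested (edgeR). At an unadjusted p under 0.05 the count was also 0 of 94, against 1.91% of all genes. The median log2 fold change was 0.01, with 63 of the 94 genes above 0, but -0.03 with 17 above 0 without homozygous saline 1 and heterozygous saline 3. Both are saline libraries picked as the lowest, so this fall follows from the choice and is no separate result. For 88 of the 94 genes the 95% interval lay within 1.2-fold. The smallest p of each complex belonged to ndufb10 at 0.09, sdha at 0.04, uqcr10 at 0.06, cox6a1 (ENSDARG00000054588) and atp5pb, a stalk subunit of the ATP synthase, at 0.03, each with an adjusted p of 1. Wider intervals belonged to variable genes such as cox4i1l, ndufa9b, cox7a1 and cox6a1 (ENSDARG00000054588), which was at 0.34 with an interval from -0.06 to 0.75.

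Subunits that hold iron-sulfur clusters or haem, or anchor a haem, were listed apart, and the 95% intervals of all 10 tested ones lay within 1.2-fold. Their log2 fold changes for iron over saline ran from -0.01 to 0.04. In the iron-sulfur subunit of complex II, sdhb, medians were 364 CPM in homozygous iron and 374 CPM in homozygous saline brains, and 362 CPM in heterozygous iron and 336 CPM in heterozygous saline brains. uqcrfs1, the Rieske protein, had 174 and 175 CPM in homozygous iron and homozygous saline brains, and 189 and 179 CPM in heterozygous iron and heterozygous saline brains. cyc1, the haem-carrying cytochrome c1, had 194 and 198 CPM in homozygous iron and homozygous saline brains, and 198 and 188 CPM in heterozygous iron and heterozygous saline brains. The groups overlapped for all 3. The remaining gene of that list, ndufs1, an iron-sulfur subunit of complex I, had 10 counts over all 40 libraries and was not tested, and ndufb4 and ndufa4l2b, with 57 and 90 counts, also failed the filter.

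Within each genotype iron called none of the genes either. Without those 2 libraries the medians within genotypes were -0.02 in homozygous fish, with 25 of 94 genes above 0, and -0.03 in heterozygous fish, with 22 above 0. These lower medians follow from the same choice of libraries. With all libraries, in homozygous fish 0 of 94 genes were called (0% of all genes), with 0 at an unadjusted p under 0.05 (1.46% of all genes), a median of 0.02 and 83 intervals within 1.2-fold, and in heterozygous fish 0 of 94 (0% of all genes), with 0 at an unadjusted p under 0.05 (3.37% of all genes), a median of 0.00 and 81 such intervals. The smallest p-values in homozygous fish belonged to ndufa9b at 0.49, sdhd (ENSDARG00000055712) at 0.06, uqcr10 at 0.08, cox5b (ENSDARG00000068738) at 0.21 and atp5pb at 0.06. In heterozygous fish they belonged to ndufb10 at 0.14, sdha at 0.07, uqcrfs1 at 0.04, ndufa4b at -0.10 and atp5md at -0.09. The interaction, which asks whether iron acted differently in the 2 genotypes, called 0 of 94 and 0% of all genes, with 0 of 94 and 2.53% of all genes at an unadjusted p under 0.05, and 50 of the 94 intervals lay within 1.2-fold. Of the genes that rose with genotype, cox4i2 had an interaction of -0.11 (95% interval -0.47 to 0.26), cox7a2 (ENSDARG00000110700) of -0.03 (-0.40 to 0.34) and cox5b (ENSDARG00000068738) of 0.23 (-0.28 to 0.73). The smallest interaction p belonged to ndufb5 at 0.09, sdhd (ENSDARG00000055712) at 0.12, cyc1 at -0.08, ndufa4b at 0.12 and atp5mc3 at 0.10, each with an adjusted p of 1. Interactions within these intervals remain compatible with the data at this depth and group size. The smallest difference that could be detected was not computed.

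The iron contrast had medians of opposite sign in the high and the low fish numbers. The labels number the fish, with 20 libraries up to 40 and 20 above it, and do not say what the number means. With fish numbers above 40 only, the median for iron over saline averaged over genotypes was -0.07 and 11 of the 94 genes were above 0. In the 20 fish numbered up to 40 that median was 0.08, and 83 of the 94 genes were above 0. Homozygous saline 1 and heterozygous saline 3, the lowest libraries of the set, are both saline libraries with numbers up to 40. The next lowest, heterozygous iron 9 at -0.26 and heterozygous iron 10 at -0.19, are both iron libraries with numbers above 40. No gene of the set was called in either part, and the difference between the parts was not tested.

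**Figure D4:**
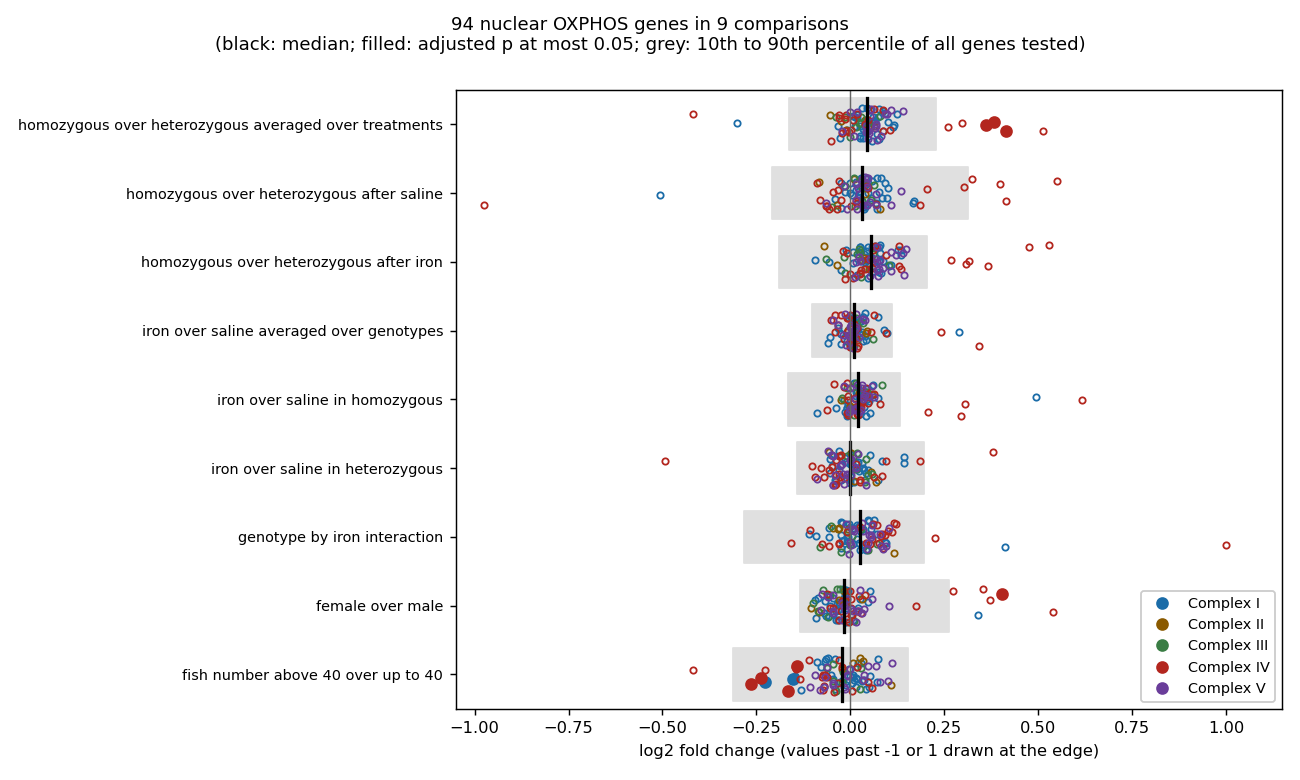
Log2 fold changes of the 94 genes (points, coloured by complex) in 9 comparisons, with the median of the set as a black line and the 10th to 90th percentile of all genes tested as a grey band. Filled points, with an adjusted p of at most 0.05, appear in 3 comparisons: genotype averaged over treatments, female over male, and fish number above 40 over up to 40.

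Between the sexes 1 gene of the 94 was called higher in females, and 0 lower, against 1.71% and 0.722% of all genes. It was ndufa4l2, which had 12.1, 21.9 and 30.1 CPM (lowest, median and highest) in 19 females, against 7.24, 15.2 and 28.8 CPM in 21 males. All but 1 of the females were above the male median. The log2 fold change was 0.40 ± 0.11 (SE, edgeR adjusted p = 0.0417), and the call was lost in 13 of the 40 fits that leave out 1 library and without the 2 libraries in doubt, where it was 0.38 (adjusted p = 0.0918). cox7a2 (ENSDARG00000110700) was at 0.27 ± 0.09 (SE, adjusted p = 0.0918) and cox4i2 at 0.18 ± 0.09 (SE, adjusted p = 0.281), and neither passed the test. The other complexes had their smallest p in ndufs8 at -0.09, sdha at -0.10, uqcrc2, a core subunit of complex III, at -0.10 and atp5f1b, the beta subunit, at -0.08, with adjusted p between 0.210 and 0.362. Mural and endothelial cell markers, 33 tested genes listed after these results were seen, had a median log2 fold change of 0.18 for females over males and of 0.06 for homozygous over heterozygous brains, with 0 called in both. For fish numbers above 40 over up to 40 their median was -0.12, with 9 called lower and 1 higher, against 10.6% and 10.8% of all genes. Summed, the list ran from 711 to 834 CPM in homozygous iron, 681 to 1060 in homozygous saline, 637 to 947 in heterozygous iron and 375 to 958 in heterozygous saline brains. The part of these cells in the differences of cox4i2 and ndufa4l2 was not tested.

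By fish number 6 of the 94 genes fell above 40 and 0 rose, against 10.6% and 10.8% of all genes. Without homozygous saline 1 and heterozygous saline 3 the count over both directions was 23. The share of all genes called in that fit is not reported here, so no reading against the background is given. ndufa3 and ndufb11, accessory subunits of the membrane arm of complex I, were at -0.23 ± 0.06 and -0.15 ± 0.05 (SE, edgeR adjusted p = 0.00668 and 0.0270). ndufa3 had 69.1, 85.0 and 99.7 CPM above 40, against 67.1, 97.8 and 129 CPM up to 40. The other 4 belong to complex IV. cox4i2 was at -0.26 ± 0.07 (adjusted p = 0.00776), cox6c at -0.17 ± 0.05 (0.0149), cox7a2 (ENSDARG00000110700) at -0.24 ± 0.08 (0.0268) and cox6b2, a testis isoform in mammals, at -0.14 ± 0.05 (0.0360).

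**Figure D5:**
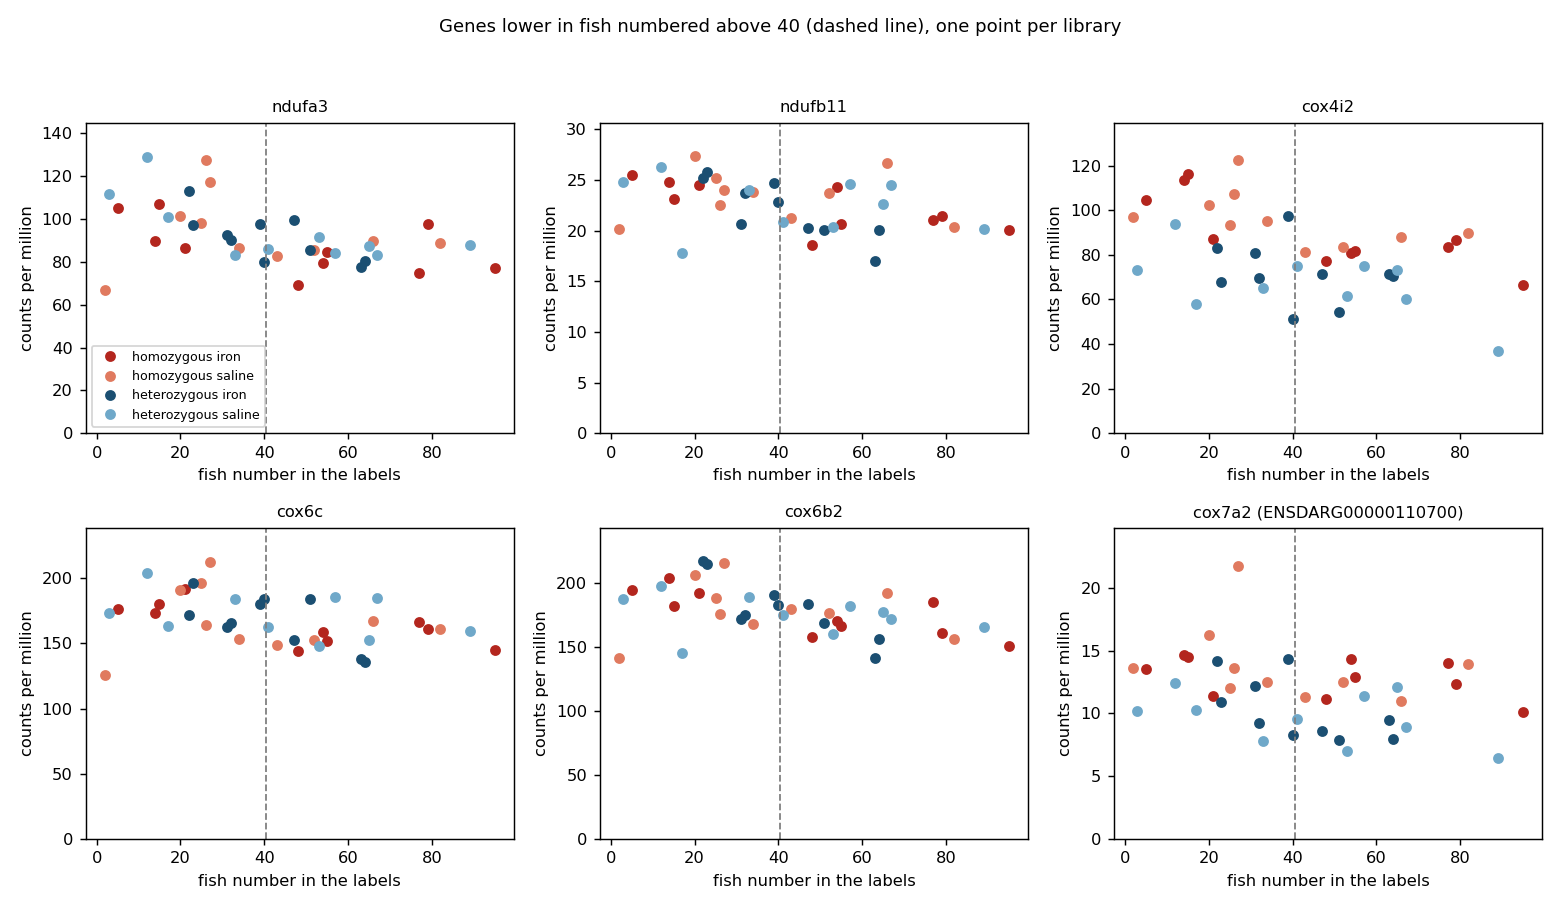
CPM (vertical axes, from 0) of the 6 genes called lower above fish number 40, against the fish number in the labels, 1 point per library and coloured by group; the dashed line is the limit of 40. For cox4i2 all 20 libraries above 40 lie below the median of those up to 40, and the values overlap for every gene.

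In the remaining complexes the smallest p belonged to sdha at 0.11 (adjusted p = 0.0635), uqcrh at -0.06 (0.433) and atp5f1a at 0.10 (0.0650). In complex IV 20 of the 24 tested genes were lower above 40, with a median of -0.07, and in complex II 4 of 5 were higher. cox4i2 had 36.9, 75 and 90 CPM above 40, against 51.0, 93.7 and 122 CPM up to 40. Above 40 there were 6 homozygous iron, 4 homozygous saline, 4 heterozygous iron and 6 heterozygous saline fish. The split was even for genotype and for treatment when each is averaged over the other. It was uneven for genotype within a treatment, for iron within a genotype and for the interaction. With a term for fish number in the model, cox4i2, cox7a2 (ENSDARG00000110700) and cox5b (ENSDARG00000068738) were called for genotype as before, at 0.35, 0.38 and 0.41.

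The 13 subunits encoded in the mitochondrial genome were not called by genotype, iron or sex, with medians of 0.06 for homozygous over heterozygous, -0.04 for iron over saline and -0.11 for female over male, and 13 of 13 were below 0 in the iron and sex contrasts. Transcripts of the mitochondrial genome are caught only in part by polyA selection, so their level depends on the library step as well. Of the tested assembly factors, 15 for complex I, 4 for complex II, 6 for complex III, 25 for complex IV and 4 for the ATP synthase, 0 were called by genotype, iron or sex. Of 21 iron-sulfur cluster assembly genes and 18 regulators of mitochondrial biogenesis 0 were called in these contrasts either. Among all genes, genotype called 2.03% higher and 2.28% lower, and sex 1.71% higher and 0.722% lower. Iron called 0% of all genes. Lists this small without a call are therefore not read as unaffected.

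In haem synthesis 2 of 17 genes rose in homozygous over heterozygous brains, where 2.03% of all genes were called higher. They were alas1, the first and rate-limiting enzyme, at 0.41 ± 0.11 (SE, edgeR adjusted p = 0.0300), and slc25a38, the carrier that brings glycine into mitochondria, at 0.60 ± 0.13 (SE, adjusted p = 0.00549). The list holds another gene with the symbol slc25a38, which was not called higher. In the citric acid cycle suclg2, a subunit of succinyl-CoA synthetase, rose by 1.02 ± 0.30 (SE, adjusted p = 0.0404). Between the sexes ogdhl, a 2-oxoglutarate dehydrogenase subunit, fell in females, at -0.31 ± 0.08 (SE, edgeR adjusted p = 0.0177). hif1aa, a zebrafish gene of the oxygen-sensing factor HIF-1, rose in homozygous brains by 0.75 ± 0.10 (SE, adjusted p = 2.21e-05). It was the single gene called higher among 34 hypoxia response genes listed after the results were seen, pfkfb4a was called lower at -0.22, and the median of the list was 0.10. Among the markers of neurons and glia the myelin genes mbpa and mbpb fell in homozygous brains, by 0.51 and 0.50 on the log2 scale (edgeR adjusted p = 0.00326 and 0.00419), and the part of a smaller share of myelinating cells in the differences above was not tested.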

How the data were processed

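Raw counts per gene were deposited by the authors for polyA RNA of 40 whole brains. The tools named in the submitters' processing notes are STAR, featureCounts, fastp and UMI-tools, with GRCz11 as the build; no versions are given in the sources used here, nor is the use of strand. Symbols came from a table of gene names, which matched 28988 of 32057 IDs. Genes were named where they passed the test or had the smallest p-values of their complex, and others as isoform partners, iron or haem subunits, or chosen after their values were seen. Members and lists were chosen with earlier results of these data known. Genes were kept by filterByExpr, scaled by TMM and tested with edgeR 4.0.16 (R 4.3.3, robust quasi-likelihood) on group means with sex and home tank, 31 residual degrees of freedom. P-values were Benjamini-Hochberg adjusted over all 19668 genes, with a threshold of 0.05. The script was tested on simulated data. CPM use TMM library sizes, and log2 CPM a prior count of 2. Intervals are 95%. Alternatives used DESeq2 1.42.0, limma 3.58.1 and sva 3.50.0. Replicate libraries come from different fish. Of 780 pairs of libraries none agreed within sampling noise (smallest chi-square per degree of freedom 6.95). Chromosomes came from RefSeq's gene table, matched by symbol, so genes that share a symbol were not placed singly. Positions on a chromosome and sequences were not used here. Some called genes of the lists around the respiratory chain are not reported here.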

Additional observations from a re-analysis of the deposited data

Results flagged for a closer look

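In 116 groups of 10 values, from 23 genes and 6 scores, a library was picked out where its gap to the nearest other library exceeded Dixon's 95% critical share of the range of the group. Chance alone gives about 1 in 20 such groups, and 15 were found. Most come from homozygous saline 1 and heterozygous saline 3, so they are not independent of each other.

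Homozygous saline 1 lay below the rest of its group for sdhc, a membrane anchor of complex II, at 57.6 CPM. It was also low in the mean centred log2 CPM of complex I at -0.382, of complex II at -0.431, of complex III at -0.312 and of complex V at -0.350. Heterozygous saline 3 lay below the rest for ndufs7 at 97.2 CPM and for sdhd (ENSDARG00000030139) at 35.6 CPM. Its mean centred log2 CPM was -0.304 over all 94 genes, -0.359 for complex II and -0.304 for complex V.

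Homozygous iron 4 lay above the rest of its group for cox4i1 at 404 CPM, ndufv1 at 282 CPM and ndufv2 at 103 CPM. Homozygous saline 5 was high for cox7a2 (ENSDARG00000110700) at 21.8 CPM. Heterozygous saline 7 was high for cox4i1l at 28.2 CPM.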

How the results depend on the processing

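No value called with all 40 libraries and the model above changed sign under any alternative, but medians of the set did for iron. The called values were picked from the same libraries that the alternatives use, so their unchanged sign is no separate support. In heterozygous fish the iron median was already below 0 with all libraries, at -0.001. Without the 2 libraries lowest for the set, chosen after seeing the data, the iron medians were -0.03 averaged, -0.02 in homozygous and -0.03 in heterozygous fish. Both are saline libraries, so the direction of this shift follows from the choice. With fish numbers above 40 only the iron medians were -0.07, -0.05 and -0.09. Genotype averaged over treatments called 3 genes, but 5 without covariates and 0 with 1 surrogate variable, males only, females only, fish numbers up to 40 only or above 40 only. After saline the count was 0, but 3 without covariates and 1 without the 2 libraries in doubt. Female over male called 1, but 0 with no filter on low counts, with 1 surrogate variable, without the libraries in doubt, and within fish numbers up to 40 or above 40. Fish number called 6, but 0 with 1 surrogate variable or males only, 1 with females only, and 23 without the 2 libraries lowest for the set. With fish numbers up to 40 only, the median log2 fold change for iron over saline in homozygous fish was 0.15 and the median interaction 0.15. The cause of these changes was not tested. The counts of calls under the alternatives take both directions, and the matching shares of all genes are not reported here. They are therefore not read as results about the set. Leaving out 1 library gave 0 to 1 calls after saline (1 without heterozygous saline 2), 2 to 3 for genotype averaged, 0 to 1 for sex and 3 to 13 for fish number (3 without heterozygous saline 2, 13 without homozygous saline 1). No paired analysis was possible because every library comes from a different fish and the replicate numbers only name libraries. Subsets hold fewer libraries, so depth and group size limit them more.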

Other observations

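Of 79 tested cytosolic ribosomal protein genes, 69 rose in females over males and 0 fell (edgeR, adjusted over all genes), with a median log2 fold change of 0.26, against 1.71% of all genes called higher. Of 75 mitochondrial ribosomal protein genes 0 were called, with 0 higher and 3 lower at an unadjusted p under 0.05 and a median of 0.00. In the citric acid cycle 20 of 20 genes had a log2 fold change below 0 in females, with a median of -0.09. In homozygous over heterozygous brains 74 of 79 cytosolic and 69 of 75 mitochondrial ribosomal protein genes were above 0, with medians of 0.07 each and 0 called, and 8 and 10 higher at an unadjusted p under 0.05. Of all genes, 2.03% were called higher and 9.93% were higher at that unadjusted level.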
